A study of Mus musculus with 74 samples.

Results

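The mouse KRAB zinc finger protein Gm13225 gave 3570 ChIP-seq peaks, and these are all rows of the deposited peak table that carry its name, of 53011 peaks of 67 KRAB-ZFPs that could be matched to a label. They were compared with the 17158 peaks of the 17 other proteins that carried the same tag in the same cells. Gm13225 is encoded by ENSMUSG00000078503.3 on mm9 chr4:145100662-145129091 (plus strand), and RefSeq lists the gene as Zfp990. The cells were F9 EC cells, a mouse embryonal carcinoma line with features of the early embryo. Gm13225, like the 17 others, was expressed with an N-terminal 3XFLAG tag from a codon-optimised open reading frame that a Sleeping Beauty transposon had inserted, in pooled puromycin-resistant clones, and was precipitated with an antibody to FLAG. Its level was therefore not the natural one, and each protein had 1 sample, so no value here carries a replicate error. Peak calls hold no expression, so neither the markers of F9 EC cells nor the level of the tagged protein could be checked.

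KRAB-ZFPs are DNA-binding repressors. An array of C2H2 zinc fingers reads the DNA, each finger contacting a few neighbouring bases, and the KRAB domain recruits KAP1 (TRIM28), which brings histone deacetylases and the H3K9 methyltransferase SETDB1. In mouse embryonic cells many of them bind and silence retrotransposons. SINEs such as B1 and B2 are short retrotransposons that end in an A-rich tail.

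The authors kept a Gm13225 peak where it was called with a p threshold of 1e-10 and an enrichment over 10 against F9 input together with a control ChIP with the FLAG antibody. Of the 18 FLAG samples, 4 had this setting (Gm13225, 2610305D13Rik, Zfp534 and Zfp882), while 12 were called with an enrichment over 20 and Gm13212 and Gm13247 with a p threshold of 1e-05. The study loosened the setting where the strict one left too few peaks, so a setting depends on the sample's own outcome, and only 26 Gm13225 peaks (0.728%) had an enrichment over 20. The tags inside the Gm13225 peaks summed to 395483, against 2002 to 540220 (median 24517) in the other samples. The depth of the libraries themselves is unknown. All intervals are 95% Wilson intervals and cover counting error only.

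Most Gm13225 summits lay beside a long run of adenines. Some peaks had a run of at least 14 adenines followed by 2 guanines within 200 bp of the summit. Of these, the 5 of the highest enrichment are shown first. They display the A-run that most peaks share together with the GG that a smaller number had. Each line gives the mm9 sequence in the direction of the A-run, from 50 bases before the run to 40 bases past its last A, with the run and its GG in capitals.
chr19:41707945-41708050 (minus strand, enrichment 26.4): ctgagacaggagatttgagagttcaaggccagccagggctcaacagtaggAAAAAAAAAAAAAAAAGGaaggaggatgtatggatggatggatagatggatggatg
chr5:64418260-64418371 (minus strand, enrichment 24.5): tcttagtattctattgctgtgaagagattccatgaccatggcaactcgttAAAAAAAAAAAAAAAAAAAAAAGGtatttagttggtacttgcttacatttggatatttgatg
chr8:106523534-106523641 (plus strand, enrichment 22.8): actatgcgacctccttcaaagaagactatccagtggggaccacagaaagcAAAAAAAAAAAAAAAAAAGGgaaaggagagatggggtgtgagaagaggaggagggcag
chr16:93465351-93465455 (minus strand, enrichment 21.3): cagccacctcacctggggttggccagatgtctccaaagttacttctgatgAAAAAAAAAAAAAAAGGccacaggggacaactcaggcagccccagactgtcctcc
chr19:56549767-56549872 (minus strand, enrichment 20.8): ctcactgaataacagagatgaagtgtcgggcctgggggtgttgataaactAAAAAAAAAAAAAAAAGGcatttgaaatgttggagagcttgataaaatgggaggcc
The runs were 15 to 22 bases long. In the order of the lines, the summit lay at 21, 14, −2, 53 and 5 bp from the 3′ end of the run, where a negative sign marks the side of the adenines. The flanking bases differed from line to line, so these are 5 different places in the genome that have the run and the GG in common.

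The peaks of the very highest enrichment held another sequence, a tandem repeat of the 4 bases CAGT. The 5 of the highest enrichment are printed with 45 bases on either side of the longest perfect repeat within 200 bp of the summit, which stands in capitals, on the strand that reads CAGT.
chr14:103863796-103863920 (plus strand, enrichment 39.5): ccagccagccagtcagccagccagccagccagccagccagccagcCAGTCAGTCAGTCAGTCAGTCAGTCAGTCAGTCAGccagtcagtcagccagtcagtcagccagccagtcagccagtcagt
chr7:123461753-123461881 (plus strand, enrichment 38.1): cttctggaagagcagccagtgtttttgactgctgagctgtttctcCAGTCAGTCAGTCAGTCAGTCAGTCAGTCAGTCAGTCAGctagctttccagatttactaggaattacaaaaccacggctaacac
chr11:7006338-7006466 (plus strand, enrichment 32.8): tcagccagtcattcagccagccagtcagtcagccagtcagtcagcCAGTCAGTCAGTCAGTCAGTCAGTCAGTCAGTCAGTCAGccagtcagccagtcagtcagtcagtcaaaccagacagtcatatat
chr2:152021301-152021442 (minus strand, enrichment 32.4): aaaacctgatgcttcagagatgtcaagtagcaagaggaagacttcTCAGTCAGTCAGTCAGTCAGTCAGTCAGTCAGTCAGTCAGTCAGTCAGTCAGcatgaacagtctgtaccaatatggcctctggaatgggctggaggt
chr17:84046497-84046619 (minus strand, enrichment 30.9): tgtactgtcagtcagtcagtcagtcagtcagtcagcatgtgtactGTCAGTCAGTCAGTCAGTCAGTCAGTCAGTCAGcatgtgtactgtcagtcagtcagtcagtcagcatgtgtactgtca
In 4 of these the repeat lay within 9 bp of the summit. The perfect repeats in capitals were 33 to 52 bases long, and in chr14 and chr11 imperfect copies of the same unit went on beyond the capitals. In chr17 further perfect copies stood beyond the capitals, set apart by other bases.

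The called regions of Gm13225 were far wider than those of any other FLAG sample. Their median width was 2310 bp (quartiles 2039 and 2539 bp, range 766 to 9184 bp), while the medians of the 17 other samples ran from 137 bp in Gm13212 to 626 bp in Gm13152. Of the 3570 regions, 2759 (77.3%, interval 75.9 to 78.6%) were at least 2000 bp wide, against 15 of 5189 in Gm13152, 1 of 300 in Zfp46 and 0 in the 15 remaining samples. The lower quartile of Gm13225 was above the upper quartile of every other sample. In the exact permutation test of 1 sample against 17, two-sided p = 0.111 (adjusted p = 0.222 over 8 measures), and this is the smallest value that 18 samples allow, so the rank is given: Gm13225 was first of 18 samples. This protein was chosen with its width known, and the rank is a description. Among the 4 samples of its own calling setting it was also first, with 325 bp in 2610305D13Rik next, and among all 58 F9 samples the next median was 1263 bp in Zfp808, a protein with an HA tag.

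**Figure D1:**
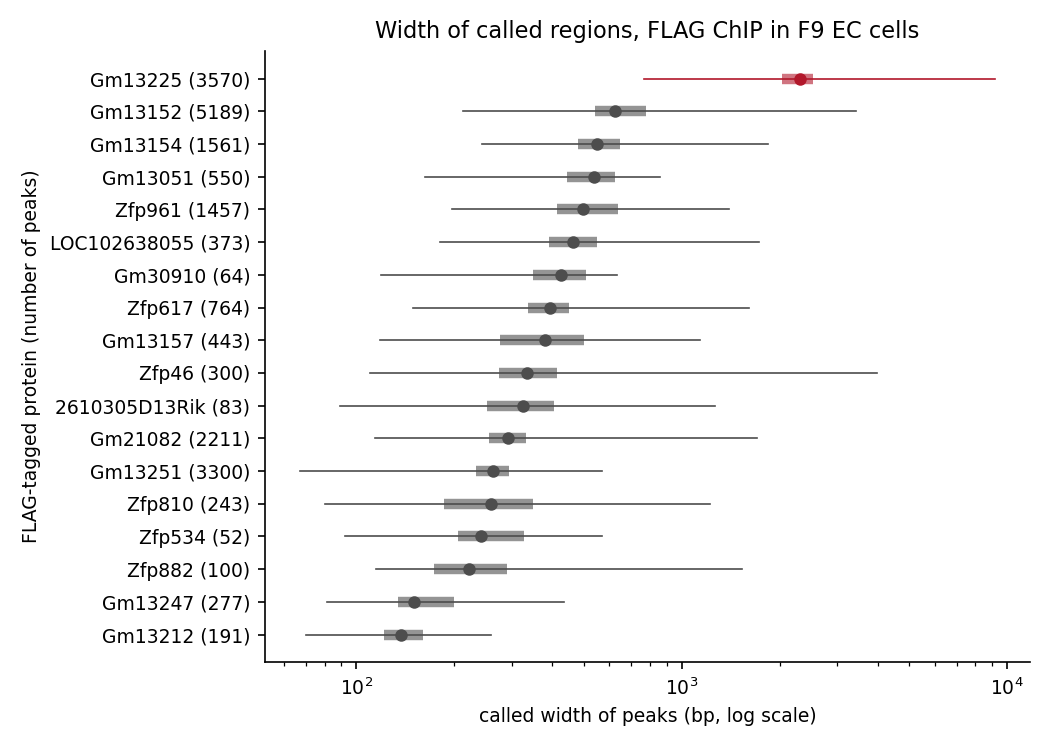
Called width of the peaks (bp, log axis) in each of the 18 FLAG samples of F9 EC cells, with the number of peaks in brackets; points are medians, thick bars run from the lower to the upper quartile and thin lines from the narrowest to the widest region. Gm13225 (red) has a median of 2310 bp, and the medians of the other 17 lie between 137 and 626 bp.

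The broad regions held many tags at low density. The median of 97 tags per Gm13225 peak (quartiles 83 and 125) was the highest of the 18 samples, where the others ran from 10 to 81.5. Per kilobase of called region, however, Gm13225 had the lowest median, with 43.4 tags against 71.8 to 177. Its median enrichment of 11.8 was the lowest too (others 12.6 to 62.4), and 563 peaks (15.8%) had an enrichment between 10 and 10.5, just inside the threshold. Each of these 3 ranks gave an exact two-sided p of 0.111. Most of the other samples were called with an enrichment over 20, so their median enrichment had to exceed 11.8. The rank of the enrichment and its p therefore follow in large part from the calling setting. Among the 4 samples of the Gm13225 setting its median enrichment was also the lowest, with 19.3 in Zfp882 next. The median score, which is −10 times the log10 of the MACS p-value, was 234 and ranked 13th of 18 (two-sided exact p = 0.667).

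Of all widths, 90% lay between 1594 and 4157 bp, and the position of the summit varied with the width. In the 978 regions of 2250 to 2500 bp, 97.4% of the summits lay in the central 20% of the region. In the 110 regions under 1500 bp 39.1% did, and in the 364 regions of 3000 to 4000 bp 13.7%. The wider regions also held more A-tracts, defined here as runs of at least 14 adenines on either strand. Regions under 1500 bp had 0.945 A-tracts on average, those of 2250 to 2500 bp 1.12, those of 3000 to 4000 bp 2.09 and the 53 regions of 5000 bp and more 3.58. The same intervals moved 10 kb to either side held 0.132, 0.238, 0.379 and 1.02. At least 2 A-tracts lay in 20.7% of the regions of 2250 to 2500 bp and in 81.3% of those of 3000 to 4000 bp.

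A motif was built from the summits with 50 bases on either side on even-numbered chromosomes and then read on the odd-numbered chromosomes and X. The search took up AAAAAAAA, present in 762 summit windows against 66 and 80 of the windows 1 kb to either side, and ended in a matrix of 20 positions with the consensus NAAAAAAAAAAAAAAAAAAG, in which G stood at position 20 in 81% of 744 sites. On the chromosomes not used to build it, 998 of 2120 summit windows held the motif (47.1%, interval 45 to 49.2%), against 5% and 5.28% of the windows 1 kb to either side. In the other FLAG samples the share was 0 to 3.27% except for Zfp617 (10.5%) and Zfp882 (7.41%). These windows reach 50 bases from the summit, so an A-run further away is not counted. In Gm13251, with a share of 1.4%, the median summit lay 121 bp beyond the nearest A-tract within 200 bp. Wider windows were read for Gm13225 only. With 100 bases on either side 73.1% of the windows held the motif, and with 200 bases 94.7%, while the flanks rose to 10.5% and 20.7% at most.

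Counted over the whole set, 2963 of 3570 summits (83%, interval 81.7 to 84.2%) had the 3′ end of an A-tract within 200 bp, and in 1386 (38.8%, interval 37.2 to 40.4%) an A-tract followed by GG lay that close. Of 25584 positions spaced 100 kb apart across the genome, 3.04% and 0.27% did, and of the positions 1 kb to either side of the Gm13225 summits 4.96% and 4.93% lay near any A-tract. The density of A-tracts rose from a genome mean of 0.0802 per kb to 4.07 per kb in the 50 bp just before the summit and 3.98 per kb in the 50 bp just after. Between 400 and 500 bp from the summit it was down to values from 0.0392 to 0.0784 per kb. Gm13251 came next among the 17 others, with 78.9% of its 3300 peaks near an A-tract and 26.1% near one followed by GG. Gm13212 (54.5%), Zfp882 (52%) and Gm13247 (43.3%) followed for any A-tract, and the remaining samples had 0.995% to 23.7%. The A-tract was picked as a feature after the motif had been seen, so these shares describe it and were not tested.

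**Figure D2:**
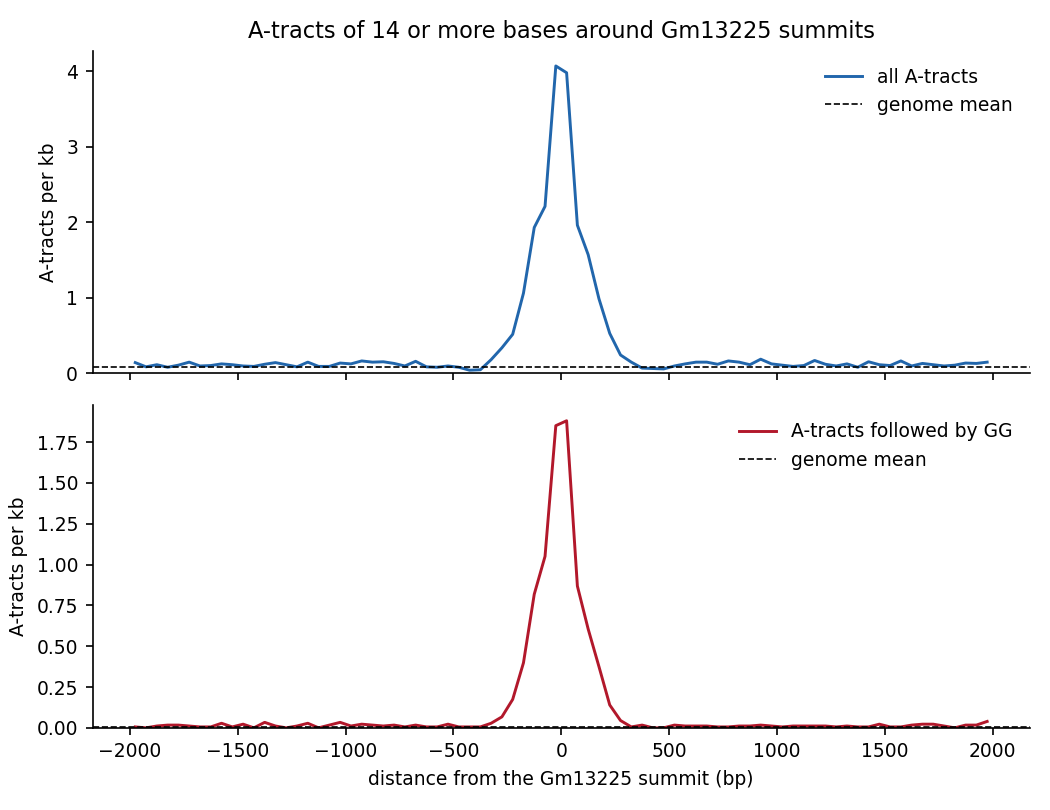
Number of A-tracts of at least 14 bases per kb around the 3570 Gm13225 summits, in bins of 50 bp (x axis: distance in bp from the summit along the plus strand); the upper panel counts all A-tracts, the lower panel those followed by GG, and the dashed line is the genome mean. Both counts peak at the summit, at 4.07 and 1.88 A-tracts per kb.

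Seen from the genome, only a minority of A-tracts had a Gm13225 peak, and which ones did varied with the length of the run and the bases after it. The build holds 205282 A-tracts, of which 18827 are followed by GG. A Gm13225 summit lay within 200 bp of 1402 of these (7.45%, interval 7.08 to 7.83%), of 1455 of 95647 followed by G and then another base (1.52%, interval 1.45 to 1.6%) and of 318 of 90808 followed by C or T (0.35%, interval 0.314 to 0.391%). Among A-tracts followed by G, the second base ordered the shares as GG, then GC (1.9%), GA (1.61%) and GT (0.711%), and GC and GA were the nearest neighbours, with intervals of 1.71 to 2.12% and 1.51 to 1.71%. The pair before the run made less difference, since GG tracts preceded by AT had a summit in 5.54% (interval 3.86 to 7.9%) and those preceded by CG in 9.32% (interval 5.73 to 14.8%), the lowest and the highest of 12 pairs. The order by the next bases was shared with Gm13251. Its summits lay at 4.57% of GG tracts, 1.41% of those followed by G and another base and 0.476% of those followed by C or T.

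The share rose steeply over a few bases of length and then stayed level. Of the A-runs followed by GG, 0.172% of those of 8 or 9 bases had a summit, 0.284% of those of 10 or 11, 0.779% at 12 bases, 2.15% at 13, 5.84% at 14 and 7.95% at 15. From 15 to 29 bases the share stayed between 7.6% and 8.21%, with overlapping intervals. It was 6.47% (interval 5.14 to 8.1%) at 30 to 39 bases and 3.12% (interval 1.65 to 5.83%) in the 288 runs of 40 bases or more. Runs followed by G and another base peaked at 15 bases with 2.64% and fell from there to 0.959% at 25 to 29 bases and 0.148% from 40 bases on. Gm13251, read from 14 bases on, had a similar course at GG tracts. Its share was 3.59% at 14 bases, 5.38% at 15, 4.53% at 25 to 29 and 2.08% from 40 on.

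**Figure D3:**
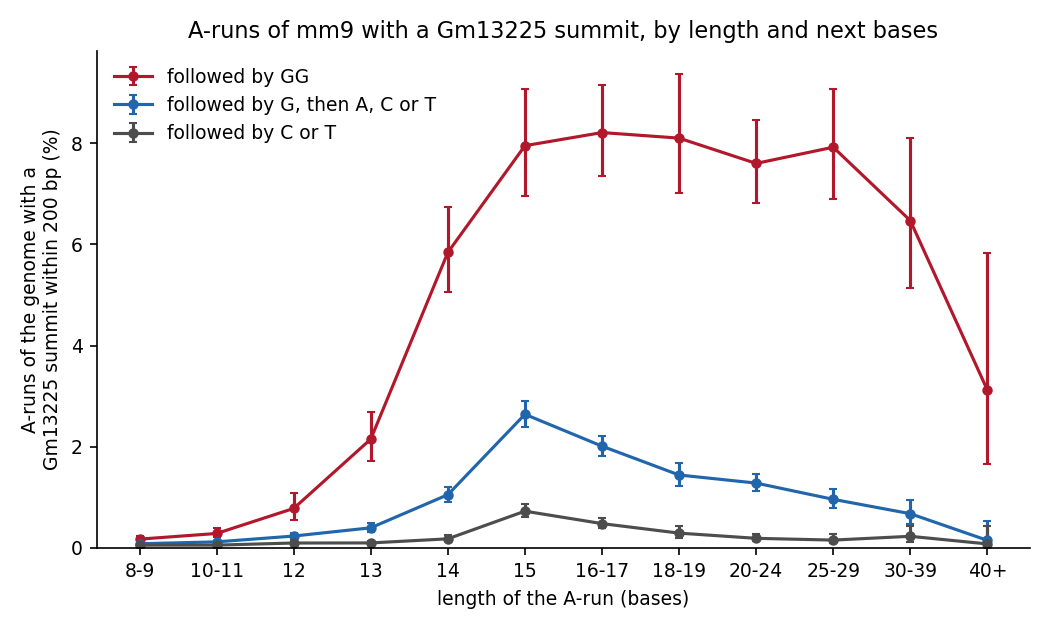
Share of A-runs in mm9 (%) that have a Gm13225 summit within 200 bp of their 3′ end, by length of the run in bases (x axis) and by the bases that follow (colours); bars are 95% Wilson intervals. Runs followed by GG rise from 0.172% at 8 or 9 bases to 7.95% at 15 and stay level to 29 bases.

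The GC content around an A-tract went with its share. GG tracts were split into 5 equal classes by the GC content of the surrounding 20 kb, and a summit lay at 3.16% of the lowest class (interval 2.65 to 3.77%), then at 4.41%, 7.83%, 9.3% and 12.5% (interval 11.5 to 13.6%) in the classes above. Split by the number of protein-coding gene starts within 500 kb, the shares were 4.14%, 6.35%, 8.66%, 8.76% and 9.32%. GG tracts within 1 kb of a transcript start had a summit in 8.43% (interval 6.91 to 10.2%), close to the 8.14% at 10 to 50 kb, and those beyond 50 kb in 5.53%.

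Peaks lay on all autosomes and X, and 0 on Y. Chromosome 19 held 185 peaks, 5.18% of the total (interval 4.5 to 5.96%) on 2.27% of the sequenced bases, or 3.18 per Mb against 1.4 over the genome. Chromosome X held 79, or 0.487 per Mb. Per GG tract the contrast was in the same direction, with a summit at 14.5% of 502 on chromosome 19 (interval 11.7 to 17.9%) and at 3.78% of 926 on X (interval 2.73 to 5.21%), outside the interval of the genome share of 7.45%.

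Most of the summits lay on 1 side of the A-tract. Measured in the direction of the run, the median Gm13225 summit within 400 bp of a GG tract was at −53 bp from the 3′ end of the run (quartiles −114 and −1 bp, n = 1457), which is within or upstream of the adenines, and 1096 of 1457 (75.2%, interval 72.9 to 77.4%) lay on that side. Over 100 bp away, 436 were on the run side and 10 beyond the GG. The called region reached further to that side too. In 938 peaks with a single A-tract, followed by GG, it extended a median of 1234 bp to the run side and 1044 bp beyond, and in 697 of these (74.3%) the run side was the longer. The adenines were on the plus strand in 50.5% (interval 47.3 to 53.7%), so the side follows the A-tract and not the strand of the genome.

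In every other FLAG sample with at least 20 peaks near an A-tract, the median summit lay on the opposite side. The median position from the nearest A-tract within 200 bp ranged from 50.5 bp beyond the run in Gm21082 to 128 bp beyond it in Gm13212, and for Gm13225 on the same count it was −47 bp. Gm21082, with 22 such peaks, had the largest share on the run side among these, 31.8%. Gm13251 is the closest comparison. Its nearest A-tract was followed by GG in 32.9% of 2603 peaks, as against 45.1% of 2963 in Gm13225 and 9.17% of all A-tracts in the genome, yet 0.461% of its summits lay on the run side, against 72% in Gm13225. Both proteins had a summit at 283 GG tracts, which were 20.2% of the 1402 of Gm13225 and 32.9% of the 861 of Gm13251. Over the 282 pairs of peaks with the same GG tract as their nearest, the Gm13225 summit was closer to the run side in 282. The median position was −48.5 bp for Gm13225 and 127 bp for Gm13251, the median gap 178 bp (quartiles 126 and 235 bp), and the median width 2293 bp against 304 bp.

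**Figure D4:**
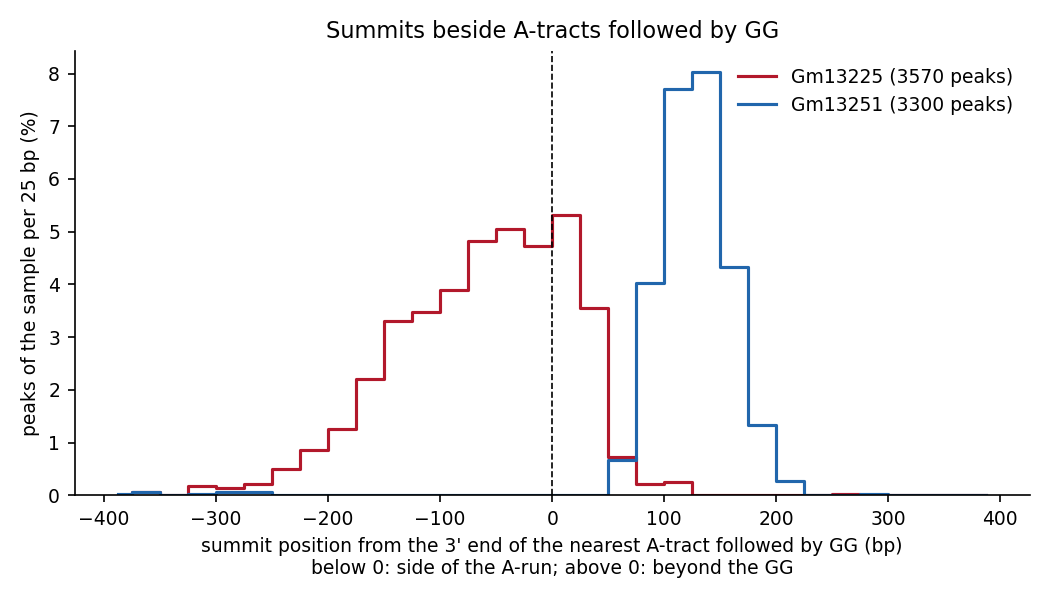
Position of peak summits from the 3′ end of the nearest A-tract followed by GG (bp, in the direction of the A-run, in bins of 25 bp), as a percent of all peaks of Gm13225 (red, 3570 peaks) and Gm13251 (blue, 3300 peaks). Of the 1457 Gm13225 summits within 400 bp, most lie on the side of the run, with a median of −53 bp. The fullest bin, however, is the one from 0 to 25 bp. Those of Gm13251 sit beyond the GG in a narrower band.

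A place called for both proteins shows the offset on the sequence, chosen with the tract on chromosome 19 printed above by the ranks of both enrichments. At chr9:57310936-57311212 (mm9, plus strand) a run of 17 adenines is followed by GG, and the line shows 110 bases before the run and 150 past its last A, with the run and GG in capitals.
chr9 tract of both proteins: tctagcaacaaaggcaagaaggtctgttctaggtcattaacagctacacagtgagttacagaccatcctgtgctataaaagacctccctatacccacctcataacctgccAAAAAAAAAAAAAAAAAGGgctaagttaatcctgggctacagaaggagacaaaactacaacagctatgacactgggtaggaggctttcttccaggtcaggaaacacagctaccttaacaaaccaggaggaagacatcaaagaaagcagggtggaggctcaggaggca
The Gm13225 summit lay 28 bp to the run side of the last A, in a region of 4085 bp with an enrichment of 15.8. The Gm13251 summit lay 128 bp beyond it, with an enrichment of 44.1. At the tract on chromosome 19 both summits were beyond the run, at 21 bp for Gm13225 and 112 bp for Gm13251, whose enrichment there was 49.4.

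The share of overlapping calls with other proteins depended on how overlap was counted. With 25% of the 200 bp windows shared, 291 Gm13225 loci (8.15%, interval 7.3 to 9.09%) were also called in another FLAG sample, and 263 of them in Gm13251 (7.37% of the Gm13225 peaks and 7.97% of the Gm13251 peaks). Counting any overlap of the called regions, 860 (24.1%) were shared, of which 755 with Gm13251 (21.1%), which is 23.1% of the Gm13251 peaks. Zfp882 followed by share of its own peaks, with 18 of 100 meeting a Gm13225 region, and Gm13152 by number, with 53 of 5189. A wide region meets another peak more readily, so the count by regions is not comparable between proteins.

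The share of GG tracts rose with enrichment up to 16, and the sequence of the most enriched peaks was another. Between an enrichment of 10 and 11, 32.2% of 1126 peaks had a GG tract within 200 bp of the summit (interval 29.6 to 35%), between 12 and 14 43.7% of 968, and between 14 and 16 52% of 415 (interval 47.2 to 56.8%). In the 13 peaks of an enrichment over 25, 1 had an A-tract within 200 bp of the summit, and 11 (84.6%, interval 57.8 to 95.7%) had a perfect CAGT repeat of at least 16 bp within 200 bp of the summit. Below an enrichment of 18, CAGT repeats were near 0.116% to 0.714% of the peaks, and at 0.0235% of the positions spaced over the genome. In all, 26 Gm13225 peaks had such a repeat, 25 of them without an A-tract at that distance.

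**Figure D5:**
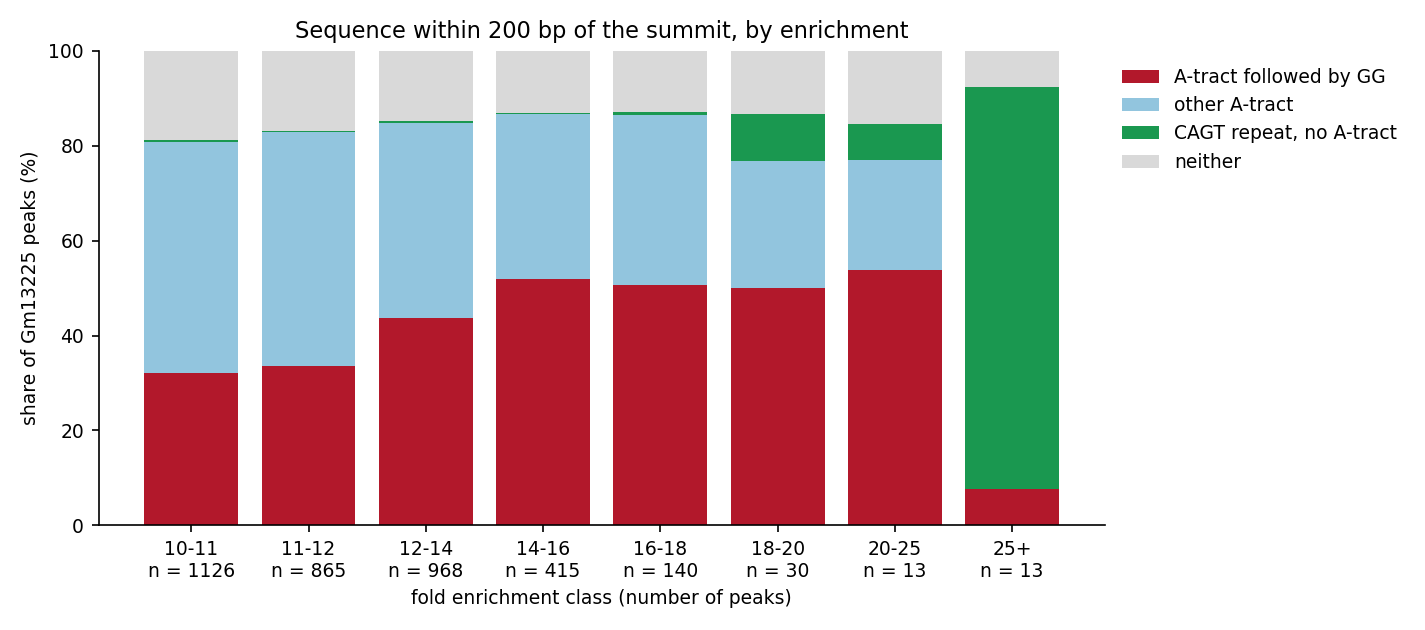
Share of Gm13225 peaks (%, y axis) by the sequence within 200 bp of the summit, in classes of fold enrichment (x axis, with the number of peaks). The GG share grows from 32.2% to 52% between enrichments of 10 and 16, and CAGT repeats make up 84.6% of the 13 peaks over 25.

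No other FLAG sample had a summit at a CAGT repeat. Of 133 perfect CAGT repeats of at least 32 bp in the build, 20 (15%, interval 9.95 to 22.1%) had a Gm13225 summit within 200 bp. Each of the other 17 samples, with 17158 peaks together, had 0 of 133, which allows a share of up to 2.26% in each. The share of repeats with a summit was 2.26% at 16 to 19 bp, 6.86% at 20 to 23 bp, 8.33% at 24 to 31 bp, 14.3% at 32 to 39 bp and 17.4% (4 of 23, interval 6.98 to 37.1%) from 48 bp on. Neighbouring lengths had overlapping intervals. Of the other 4-base units, AGCC came next with 4 of 90 (4.44%), and of the units with more than 1000 perfect repeats AAAT was highest, with 17 of 12605 (0.135%). A search for words that did not use the enrichment also took up this unit. It read the same Gm13225 summits, so it is not separate support. Words of 12 bases were searched in the 466 summit windows of even-numbered chromosomes that had no run of 12 adenines, and ACTGACTGACTG was the third word taken up. It was in 13 of 2120 summit windows on the other chromosomes, against 0 and 1 of the windows 1 kb away.

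The deposited false discovery rate was above the median of all peaks at many of these loci, and at other peaks of high score too. The median was 0.07% over all Gm13225 peaks, but 3.33% in the 25 peaks with a CAGT repeat and no A-tract within 200 bp, and the peak of the highest enrichment had 100%. In all, 25 peaks had a rate over 5%, and 12 of these had an enrichment over 20. Peaks beside an A-tract were among them, such as those near Ssbp3 (25%), Mlf2 (16.7%), Stk31 (13.3%) and Trim71 (11.1%). MACS sets this rate by swapping ChIP and control, so the rate compares, at the score of a peak, the number of regions called in the control with the number called in the ChIP. The 25 peaks with a CAGT repeat and no A-tract within 200 bp had a median width of 2461 bp (quartiles 2224 and 2668 bp). Their median was 172 tags and their median enrichment 19.6, and none of their regions met a region of another FLAG sample. The 2962 peaks with an A-tract and no such repeat had 2305 bp (quartiles 2036 and 2537 bp), 98 tags and 11.8, and the 582 with neither 2322 bp, 93 tags and 11.6. Broad regions were thus found in all 3 classes. Of the 582, 52.9% had a run of at least 10 adenines within 200 bp, against 8.26% of the positions spaced over the genome.

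Words of B1 and B2 elements were found at the summits as well, and they are named from the known sequence of these elements, since no repeat annotation was used here. On the odd-numbered chromosomes and X, the B1 word GGAGGCAGAGGC was in 212 of 2120 summit windows with 100 bases on either side, against 45 and 34 of the windows 1 kb away. The B2 word CCCAGCAACCAC was in 130, against 18 and 21. Of all summits, 647 (18.1%, interval 16.9 to 19.4%) lay in sequence whose 24-base words had a median of at least 10 copies, compared with 13.1% of the positions over the genome, and this ranked 8th of the 18 samples (two-sided exact p = 0.889). Summits in sequence without a second copy were 74.1% of the peaks. Their regions had a median width of 2292 bp, against 2383 bp for the 170 with 1000 copies and more. This class of the most copies held 4.76% of the summits and 5.12% of the positions over the genome.

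The share of A-tracts with a Gm13225 summit varied with the place of a SINE word beside the run. The B1 word stood within 300 bp before the run, on the same strand, at 2186 of the GG tracts, and 8.92% of these had a summit (interval 7.8 to 10.2%), against 7.45% of all GG tracts. The share was 8.58% (interval 6.78 to 10.8%) for the B2 word in that place. Before the run on the other strand, the shares were 10.5% for the B1 word (interval 6.88 to 15.6%) and 10.3% for the B2 word (interval 5.54 to 18.5%). After the run, the shares of GG tracts were lower, though several of their intervals held the 7.45%. With the B2 word there on the same strand, 14 of 371 GG tracts had a summit (3.77%, interval 2.26 to 6.23%), and with the B1 word there on the other strand 2 of 129 (1.55%, interval 0.426 to 5.48%). For the B1 word after the run on the same strand it was 6.33% (interval 4.42 to 9%). Most of the words lay before the run on the same strand, which is the order in which a SINE body and its tail stand. The B1 word was there at 13.9% of the GG tracts with a Gm13225 summit and at 11.6% of all GG tracts.

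For A-tracts followed by G and another base, a summit lay at 1.52% in all. With the B1 word before the run it was 1.35% on the same strand (interval 1.17 to 1.55%) and 3.61% on the other (interval 2.51 to 5.17%), and with that word after the run on the same strand 2.33% (interval 1.82 to 2.97%). With the B2 word before the run on the same strand it was 2.44% (interval 2.1 to 2.82%). The shares after the run were not lower throughout at these A-tracts. The B2 word after the run had 1.75% on the same strand and 2.43% on the other, and the B1 word on the other strand 0.694%.

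Few Gm13225 peaks lay at promoters. Of the summits, 246 (6.89%, interval 6.11 to 7.77%) lay within 1 kb of an annotated transcript start, against 4.26% of the positions over the genome, and the share ranked 11th of 18 (two-sided exact p = 0.889), far under the 50% of Gm13152 and 44.3% of Zfp46. Introns held 1677 summits (47%, against 37.4% of the positions), the space between genes 1755 (49.2%, against 59%), coding exons 21 (0.588%, against 1.5%) and untranslated regions 75 (2.1%, against 1.41%). The median width was 2349 bp in introns and 2281 bp between genes. Inside genes, the adenines of the GG tracts with a summit were on the strand of the gene in 40.2% of 682 (interval 36.6 to 43.9%), and in 38.5% of 7878 GG tracts without one. The summits with 100 bases on either side had a median GC content of 43%, the 16th highest of the 18 samples.

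The 10 peaks of the highest enrichment ran from 26.4 to 39.5, with widths of 1933 to 4074 bp, and 8 of them had a CAGT repeat within 200 bp. The first lay at chr14:103862455-103865306 between genes, 48696 bp from the start of Scel, which encodes a protein of the cornified envelope. The second, at chr7:123460369-123464137, was 9936 bp from the start of Plekha7, an adherens junction protein. The third lay in an intron of Adcy1 (a brain adenylyl cyclase) at chr11:7004852-7007678. The next 2 lay between genes, nearest to Csnk2a1 (a catalytic subunit of casein kinase 2, 31201 bp) and Kcng3 (a potassium channel subunit, 15378 bp). Introns of Limch1 and of Tec, a tyrosine kinase, held further peaks with a repeat. The 2 without one were in introns of Dab2, an endocytic adaptor, and of Slit1, an axon guidance ligand, and the Slit1 peak is the one at the GG tract on chromosome 19 printed first above.

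The 10 widest regions, 6440 to 9184 bp, held 3 to 7 A-tracts each and none had a CAGT repeat near its summit. The widest lay in an intron of Ubap2 at chr4:41203572-41212755, with 405 tags and 6 A-tracts. A region of 8870 bp with 7 A-tracts followed, at chr9:114476685-114485554, whose summit was 7012 bp from the start of Trim71, a stem cell regulator of mRNA. Regions near Braf, Fbxl18, Hspa4, Prrc2b, Stk31 and Gm17334 and in introns of Dnahc2 and Plcd4 made up the rest. Only the one at Hspa4, an HSP70 family chaperone, had its summit near a start (450 bp), and their enrichment was 10.5 to 15.1.

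The 10 peaks with the most tags, 344 to 463, overlapped both lists. They took in the regions near Trim71 and Stk31 and in Plcd4 and Ubap2 from among the widest and the one near Plekha7 from the most enriched. The first, with 463 tags, lay at chr4:106547446-106552693, 31951 bp from Ssbp3, a single-stranded DNA-binding protein of LIM-domain complexes. The others lay near Mlf2, Rere (a transcriptional corepressor) and 4931406P16Rik and in an intron of Dip2b.

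Of 22225 protein-coding gene symbols, 1044 (4.7%) had a Gm13225 summit within 10 kb of their start. Of the pluripotency genes fixed as a list, 2 of 23 did (8.7%, interval 2.42 to 26.8%), Pou5f1, the core factor OCT4, and Sall4, a zinc finger factor of the same network. The Pou5f1 region spanned 3435 bp at chr17:35636416-35639850 with 184 tags and an enrichment of 11.4, its summit 4733 bp upstream of the start and beside a GG tract. The Sall4 region spanned 2938 bp at chr2:168596279-168599216, its summit 4023 bp upstream and 17 bp to the run side of a GG tract. Of the genes of the KAP1 silencing machinery it was 2 of 24 (8.33%, interval 2.32 to 25.8%), Mta2, a subunit of the NuRD deacetylase complex, and Atf7ip, a partner of SETDB1. The Mta2 summit lay 4834 bp from the start, in an intron of the neighbouring Eml3, and the Atf7ip summit 6206 bp from the start of a short gene model of that name (chr6:136556350-136559373), in an intron of Plbd1. Of 91 ribosomal protein genes, 5 (5.49%, interval 2.37 to 12.2%) had a summit, and these were Rpl5, Rpl30, Rps10, Rps14 and Rps24, with Rpl5 alone holding it within the gene. The intervals of the 3 lists hold the share of all genes.

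No peak lay at the gene of Gm13225 or its neighbours. Of the 17 KRAB-ZFP genes on chromosome 4 that the series assayed, 0 had a summit within 10 kb, which allows a share of up to 17.6% and so does not set them apart from the 4.7% of all genes. Within 50 kb it was 0 of 17, against 20.2% of all genes. As 16 of the 17 genes lie in 1 stretch, they are not separate places, and neither count was read as a depletion. The stretch of chr4:145100662-147222475 that holds 16 of them had 0 of the 189 Gm13225 peaks of that chromosome, which has 1.24 per Mb. The peak closest to the gene of Gm13225 was 2314019 bp away. These genes hold near copies of each other, a read that fitted several places was put at 1 of them at random, and the part of this in the count of 0 was not tested.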

How the data were processed

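ChIP-seq peaks of 18 FLAG-tagged KRAB-ZFPs in F9 EC cells were analysed, 1 sample each. As the labels and the methods state, the authors aligned reads to mm9 with Bowtie, placing a read with several equal matches at 1 of them, and called peaks with MACS 1.4.2 in each sample. The authors deposited 200 bp windows around the summits, called widths and summit offsets in bp, a raw count of tags, a score (−10 log10 p), a fold enrichment as a ratio, and a false discovery rate in percent. The control libraries were not analysed here, and 1 name of the table with 244 of 53255 peaks matched no label and was not used. Neither the reads nor the library totals were used here, so the interval of a share of peaks covers counting error only, and tags per peak depend on an unknown depth.

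The summit is the centre of the deposited window. Sequence was read from mm9 (NCBIM37) and genes from GENCODE vM1. A-tracts are runs of at least 14 A on either strand, and a summit was near one when the base after the run was within 200 bp. The motif was a matrix of 20 positions grown from the 8-base word of the largest excess over windows 1 kb away, with a threshold that 5% of those windows pass. Copies were counted for 24-base words in the genome, and a summit with 100 bases on either side was multi-copy at a median of 10 copies. Genome positions were 25584 points every 100 kb. Perfect 4-base tandem repeats of at least 16 bp were found in the build. Values per sample were compared by an exact permutation test of 1 against 17, two-sided as 2 times the smaller tail, which cannot go below 0.111, with Benjamini-Hochberg adjustment over 8 measures. No test was run over peaks, A-tracts or genes. The steps were tested on simulated data (Python 3.11.15, numpy 2.4.6, pandas 2.3.3, scipy 1.17.1, statsmodels 0.14.6, pysam 0.24.0, numba 0.67.0).

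Loci named are the 10 peaks of the highest enrichment, the 10 widest and the 10 with the most tags, and genes named are list members with a summit within 10 kb of their start. Of the loci, 1 is not reported here. The protein, the lists and the comparisons were chosen with earlier results of these data known, and the A-tract and CAGT counts were added after the motif was seen. Alternatives were other widths, windows, thresholds, distances and overlaps.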

Additional observations from a re-analysis of the deposited data

Results flagged for a closer look

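Among the 4 FLAG samples called at the same setting, Gm13225 stood apart from the other 3 on 4 of 11 measures, by the rule that the gap to the nearest sample exceeds 0.829 of the whole range. These were the median width of 2310 bp, the share of broad regions of 77.3%, the median of 97 tags and the share of summits within 1 kb of a transcript start of 6.89%, which was the lowest of the 4. Chance flags about 1 in 20 such groups, the measures are not independent, and the samples are of different proteins and not replicates. The width of Gm13225 regions was known when this protein was chosen, so that rate does not hold for the median width and the share of broad regions.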

How the results depend on the processing

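No paired analysis was possible because each protein had 1 sample, and for the same reason no replicate was left out. Gm13225 had the widest median in each of the 4 sets of samples compared. The exact two-sided p was 0.0345 over all 58 F9 samples, where the rank was again 1, as the number of samples sets the smallest p. Since this protein was chosen with its width known, that p describes its rank and is not a test of it. The 58 samples also include HA-tagged ones. With an enrichment over 20 in every sample, Gm13212 had no peak left. Of the 39 alternatives, 21 were planned and 18 were chosen after seeing the data (those on A-tracts, sides and CAGT repeats).

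With an enrichment over 20 (26 peaks), the median width was 2559 bp, 11.5% of the summits were within 1 kb of a start, 7.69% were on chromosome 19, and 42.3% were near an A-tract, in place of 83%. Broad regions made up 99.9% at 1000 bp and 16.6% at 3000 bp. The motif share was 73.1% with 100 bases on either side of the summit, 94.7% with 200, 36.2% at a threshold of 1% of the flanks and 49.7% when built on the odd-numbered chromosomes and X. Within 5 kb of a start lay 25.8% of the summits, and within 50 kb of a summit 20.2% of gene starts. Multi-copy sequence held 25.9% at 2 copies and 11.3% at 100. Overlap with another FLAG sample was 3.33% at 50% of the windows and 24.1% by called regions. An A-tract was near 60.3% of the summits within 100 bp, 86.8% within 300 bp, 89.4% at a length of 12 and 55.7% at 16. GG tracts had a summit in 5.38% within 100 bp, 7.85% within 300 bp and 5.67% from a length of 12. Summits on the run side were 65.3% within 100 bp and 71.2% in unique sequence. The share of CAGT repeats with a summit ranged from 12% to 21.8%. Wider windows and longer distances take in more summits by construction. For the values with an enrichment over 20, in unique sequence and from the other chromosomes, the cause was not tested.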
